A study of Mus musculus with 18 samples.

Results

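The globin genes and Alas2 were followed over 18 Affymetrix arrays of laser-captured mouse dopamine neurons. Probe sets were taken where the platform annotation gave a symbol beginning Hba- or Hbb-, or Alas2. This found 16 probe sets of 10 genes among the 45101 on the array. Adult alpha globin (Hba-a1 and Hba-a2) had 5 probe sets and adult beta globin (Hbb-bt, Hbb-bs, Hbb-b1 and Hbb-b2) had 3. The embryonic globins Hbb-y, Hbb-bh1 and Hba-x had 7, and Alas2 had 1. Of the 16, 12 carried 1 symbol and 4 carried several: 3 named both Hba-a2 and Hba-a1, and 1 named all 4 adult beta genes. Probe sets whose name ends in _x_at, 6 of the 16, are those the manufacturer marks as able to bind related transcripts.

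All mice were adult C57Bl/6 animals carrying the hTH-GFP transgene, in which human tyrosine hydroxylase promoter sequence drives green fluorescent protein. They lived in single cages for 9 weeks. MPTP, a toxin of dopamine neurons, was given at 4 mg/kg over 2 or 10 days, and controls received saline over 10 days, so the 2 day groups differ from saline also in the number of injection days. Tissue was taken 7 days after the last injection. Neurons of the substantia nigra (SN) and of the ventral tegmental area (VTA) were captured, which with the 3 treatments gave 6 groups of 3 arrays. The sample descriptions call the controls untreated, where the treatment protocol names saline. The titles call the arrays of a group biological replicates, but nothing ties an array to a mouse or says how many mice it holds, so the tests measure the spread between these arrays.

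Hemoglobin carries oxygen in red cells and is built from paired alpha-type and beta-type chains, each holding a heme. In the mouse the alpha-type genes lie together on chromosome 11 and the beta-type genes on chromosome 7, with the embryonic genes upstream of the adult ones, and the embryonic chains are replaced before birth. Alas2, on chromosome X, makes the erythroid form of the first enzyme of heme synthesis, and Alas1 the form used by other cells. Globin transcripts are very abundant in blood, and they have also been described in dopamine neurons of the midbrain. C57BL/6 mice carry the beta haplotype with Hbb-bs and Hbb-bt. Hbb-b1 and Hbb-b2 name the adult beta genes of another haplotype and are close to them in sequence, so the 3 adult beta probe sets were not assigned to single genes here. The same holds for Hba-a1 and Hba-a2.

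The promoters of the member genes are shown beside the array values. Most adult globin probe sets varied together over the arrays while the embryonic ones did not, as described further on. A link between promoter sequence and these values was not tested. The sequences run 5′ to 3′ on the strand of the gene, cover the 150 bases before the start of transcription, and come from RefSeq on GRCm38.p6. Of the 10 genes, 7 had an entry. Capitals mark matches to 8 motifs on either strand. AGATAA is a word bound by GATA factors, and the related word TGATAA is another. Erythroid Kruppel-like factor is represented by CCACACCC, the erythroid factor NF-E2 by the word TGAGTCA, and the promoter box of many genes by CCAAT. For the TATA box the usual word TATAAA was searched, with the variant word ATAAAA beside it. The further variant ATATAA was added after the sequences had been read. Hba-a2 is not printed, because it matched Hba-a1 at 297 of 297 compared bases, with the annotated starts offset by 3 bases.

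Hba-a1, chr11:32283522-32283671, plus strand: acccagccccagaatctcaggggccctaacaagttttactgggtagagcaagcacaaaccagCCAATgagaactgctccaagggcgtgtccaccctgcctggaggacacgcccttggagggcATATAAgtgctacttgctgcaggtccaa
Hbb-bs, chr7:103827929-103828078, minus strand: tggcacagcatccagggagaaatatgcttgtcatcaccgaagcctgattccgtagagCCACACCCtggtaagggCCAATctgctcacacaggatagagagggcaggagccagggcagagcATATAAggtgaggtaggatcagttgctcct
Hbb-bt, chr7:103813924-103814073, minus strand: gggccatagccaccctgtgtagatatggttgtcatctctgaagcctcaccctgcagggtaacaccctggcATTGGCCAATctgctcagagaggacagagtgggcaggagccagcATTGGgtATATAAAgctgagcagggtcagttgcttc
Hbb-y, chr7:103853208-103853357, minus strand: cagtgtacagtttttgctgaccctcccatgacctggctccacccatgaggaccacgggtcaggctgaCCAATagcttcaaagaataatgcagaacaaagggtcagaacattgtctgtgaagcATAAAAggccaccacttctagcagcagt
Hba-x, chr11:32276450-32276599, plus strand: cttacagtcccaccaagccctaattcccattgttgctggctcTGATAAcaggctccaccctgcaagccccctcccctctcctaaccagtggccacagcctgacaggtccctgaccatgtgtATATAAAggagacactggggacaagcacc
Alas2, chrX:150547267-150547416, plus strand: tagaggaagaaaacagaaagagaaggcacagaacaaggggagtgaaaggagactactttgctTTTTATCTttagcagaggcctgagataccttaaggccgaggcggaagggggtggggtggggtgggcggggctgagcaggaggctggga

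The adult alpha and beta promoters and that of Hbb-y each held CCAAT, a word found in 24.5% of 32851 promoters of this length. CCACACCC, in 2.18% of all promoters, was matched in Hbb-bs, the major adult beta gene of this strain, and in none of the other printed sequences. The GATA words were matched in Hba-x (TGATAA, 4.45% of all promoters) and, on the opposite strand, in Alas2 (AGATAA, 5.65%), where the match overlaps that of the word ATAAAA on the same strand. The word ATATAA, in 5.35% of all promoters, was matched in the adult alpha and beta promoters and in Hba-x. In Hba-x and Hbb-bt it overlaps TATAAA (7.57%), and Hbb-y has ATAAAA (10.1%) in the corresponding place. TGAGTCA (2.84%) was matched in none of them. A match here is a stretch of letters and not a measured binding site.

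The deposited values are log2 intensities after robust multi-array averaging (RMA), and each probe set has a median of 0 over the 18 arrays. A value therefore says how far an array stands above or below the middle array for that probe set, and a difference of 1 is a factor of 2. No absolute level can be read from them, so a probe set near background cannot be told from a bright one, and the order of levels between genes is not given. For the same reason the dopamine neuron label could not be checked against the level of its markers. In bulk samples such as these, fewer cells of a type and less RNA per cell cannot be told apart. The spread of all probe sets (median absolute deviation) lay between 0.182 and 0.302 on 16 arrays and was wider on SN saline array 1, at 0.350, and on VTA 2 day array 1, at 0.400.

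Adult alpha globin was read by 5 probe sets, of which 3 are shared by Hba-a1 and Hba-a2, the genes of the adult alpha chain. For 1428361_x_at the SN values were 1.15, 1.67 and -0.10 after saline. They were 0.26, 0.14 and -0.66 after 2 days of MPTP and -0.84, -0.89 and 0.52 after 10 days. In the VTA they were 0.81, 1.05 and -0.29 after saline, 0.57, -0.08 and -0.12 after 2 days, and -0.84, -0.55 and 0.08 after 10 days. In both regions saline arrays 1 and 2 were the highest of all, saline array 3 lay among the treated arrays, and each MPTP group overlapped its saline group. The group means were 0.91 ± 0.91 (SD, n = 3) after saline in the SN and 0.52 ± 0.71 in the VTA.

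1452757_s_at followed the same course over the arrays. Its SN values were 0.94, 1.21 and -0.19 after saline, 0.22, 0.04 and -0.59 after 2 days, and -0.06, -0.40 and 0.58 after 10 days. In the VTA they were 0.89, 1.00 and -0.58 after saline, 0.58, -0.04 and -0.30 after 2 days, and -0.44, -0.38 and 0.39 after 10 days. Again saline arrays 1 and 2 of each region were at the top, and array 3 stood lowest in the saline groups and highest in the 10 day groups.

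1417714_x_at, the third probe set of the same genes, had a different order of groups. The SN values were 0.52, 0.70 and -1.11 after saline, -0.66, -0.75 and -1.43 after 2 days, and 0.21, 0.27 and 1.56 after 10 days. The VTA values were 0.24, 0.26 and -1.41 after saline, -0.29, -0.96 and -1.02 after 2 days, and 0.00, 0.00 and 0.95 after 10 days. The 10 day group had the highest mean in each region, where 1428361_x_at had its lowest. The 10 day arrays lay above the 2 day arrays in both regions without overlap.

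The probe sets with a single alpha symbol behaved otherwise. 1427219_at (Hba-a2) was low on array 1 of all 6 groups, between -0.97 and -0.59, and its other arrays lay between -0.64 and 0.46. 1453574_at (Hba-a1) ranged from -0.36 to 0.61 with SN saline array 3 highest. Over the 18 arrays their correlation with the 3 shared probe sets was between -0.01 and 0.21.

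Adult beta globin was read by 3 probe sets, the one with 4 symbols and 2 with the symbol Hbb-b2. 1417184_s_at, which names every adult beta gene, had SN values of 0.18, 1.19 and 0.28 after saline, -0.02, 0.20 and -0.33 after 2 days, and -0.17, -0.99 and 0.46 after 10 days. Its VTA values were 0.02, 0.85 and -0.33, then -0.55, 0.14 and -0.10, then -0.66, -0.74 and 0.06. Saline array 2 was the highest in each region, and the treated groups overlapped the saline groups.

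In the SN 1427866_x_at stood at 0.80, 0.65 and 0.10 after saline, at -0.31, -0.42 and -0.09 after 2 days, and at -0.05, -0.24 and 0.42 after 10 days. In the VTA the values were 0.63, 0.38 and -0.09, then 0.10, 0.05 and -0.11, then -0.29, -0.32 and 0.08. The SN arrays after 2 days lay below all SN saline arrays, while the other 3 treated groups overlapped their saline groups. 1427865_at, with the same symbol, ranged from -0.97 on VTA 10 day array 2 to 0.97 on SN saline array 2.

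Alas2 was high on SN saline arrays 1 and 2, at 1.23 and 1.33, and low on array 3, at -0.79. The SN values were -0.06, 0.02 and -0.20 after 2 days and -0.83, -0.08 and 0.51 after 10 days. In the VTA they were 0.20, 0.59 and -0.06 after saline, 0.26, 0.16 and 0.30 after 2 days, and -0.07, -0.02 and -0.09 after 10 days. The saline group of the SN thus spanned nearly the whole range of the gene, and the VTA values after 10 days lay below those after 2 days without overlap.

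**Figure D1:**
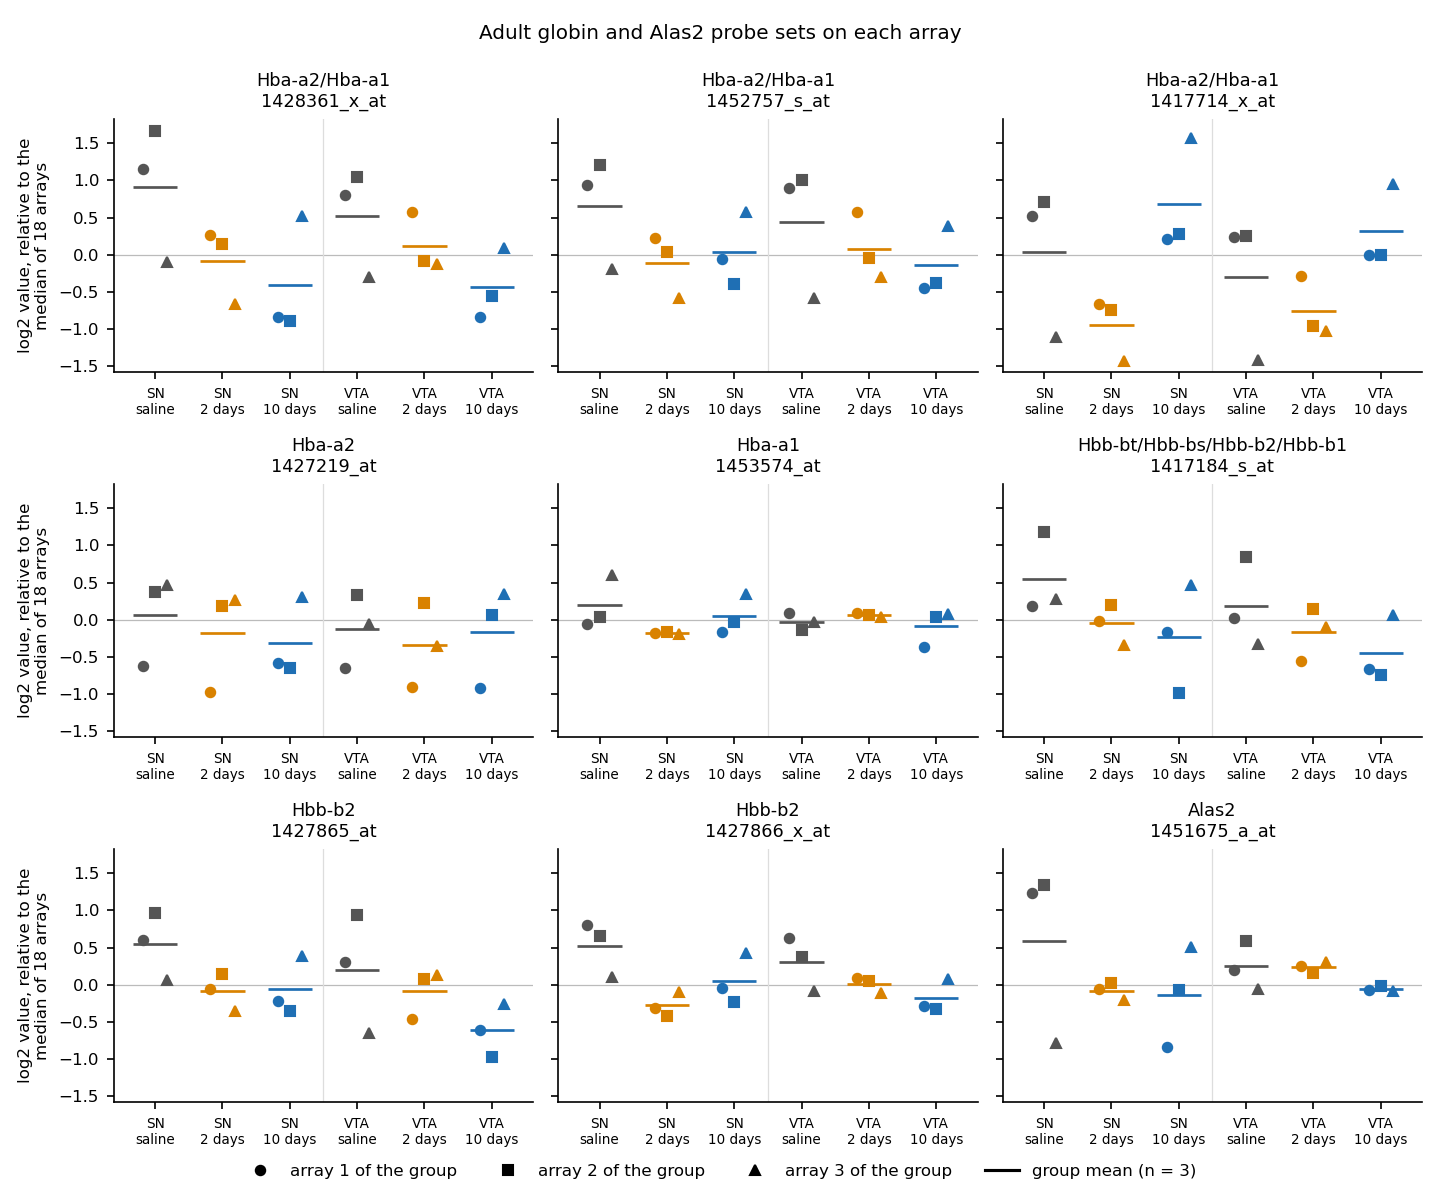
Log2 values of the 8 adult globin probe sets and Alas2 on each of the 18 arrays, relative to the median of the probe set, by group; symbols give the array number and bars the group mean (n = 3). In the upper left panel saline arrays 1 and 2 reach 1.15 and 1.67 in the SN, while saline array 3 lies at -0.10.

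The embryonic globins stayed near their medians. The 3 Hbb-y probe sets (the early embryonic beta-type chain) ranged from -0.27 to 0.63 over all arrays, the 3 of Hbb-bh1, another embryonic beta-type chain, from -0.45 to 0.46, and Hba-x, the embryonic alpha-type chain, from -0.45 to 0.43. The median SD over 18 arrays was 0.20 for the 7 embryonic probe sets and 0.54 for the 8 adult ones, against 0.29 for all probe sets. 1417714_x_at varied more than 98.9% of all probe sets and 1428361_x_at more than 97.7%. Among the adult probe sets, 1453574_at was the least variable, at an SD of 0.22.

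The first question was whether MPTP moved these genes in SN neurons, which are more sensitive to the toxin. After 2 days the median difference from saline of the 8 adult probe sets was -0.70, with 8 of 8 lower, against a median of -0.01 over all probe sets. None of the 16 members passed limma's test at an adjusted p of 0.05, in a comparison where 0% of all 45037 probe sets passed, and 1 member had an unadjusted p under 0.05, as had 5.55% of all. That member was 1427866_x_at, at -0.79 ± 0.23 (SE), with an unadjusted p of 0.0029 and a limma adjusted p of 0.843. The 95% interval of 1428361_x_at, whose difference was -0.99 ± 0.48, ran from -2.01 to 0.02.

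There were 3 members whose SN arrays after 2 days all lay below the saline arrays: 1427866_x_at, 1453574_at (-0.37 ± 0.19) and the Hbb-bh1 probe set 1437810_a_at (-0.23 ± 0.15). Of all probe sets, 7.06% were lower without overlap in this comparison. The embryonic globins had a median difference of -0.09, with 5 of 7 lower. Alas2 was at -0.67 ± 0.42, and without SN saline array 2 or 3 this became -0.30 or -1.36. For 1428361_x_at the same arrays took the difference to -0.61 or -1.50.

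After 10 days of MPTP the adult probe sets of the SN had a median difference of -0.54, with 7 of 8 lower. No member passed limma's test, which 0.0155% of all probe sets did, and 1 had an unadjusted p under 0.05, against 4.86% of all. This was 1428361_x_at at -1.31 ± 0.48, with a limma adjusted p of 0.991; it was -0.93 without SN saline array 2 and -1.82 without array 3. The exception to the lower values was 1417714_x_at at 0.64 ± 0.52, which was 0.07 without SN saline array 3. Alas2 was at -0.73 ± 0.42, and at -0.36 or -1.42 without SN saline array 2 or 3. The Hbb-bh1 probe sets 1437810_a_at (-0.32) and 1437990_x_at (-0.19) were lower without overlap, as were 5.5% of all probe sets.

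In the VTA, whose dopamine neurons are less sensitive to MPTP, the adult probe sets had a median difference of -0.32 after 2 days, with 7 of 8 lower. This depended on the saline arrays: the median was -0.20 without array 1, -0.05 (5 of 8 lower) without array 2 and -0.66 without array 3. No member passed limma's test, which 0.0133% of all probe sets passed, and none had an unadjusted p under 0.05, against 7.39% of all. Alas2 was at -0.01 ± 0.42. The Hbb-y probe set 1436823_x_at was higher without overlap, by 0.19, as were 4.94% of all probe sets.

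After 10 days the adult probe sets of the VTA had a median difference of -0.53, with 7 of 8 lower and 1417714_x_at again the exception, at 0.62 ± 0.52 (0.07 without VTA saline array 3). Without VTA saline array 1 or 2 the median was -0.34 or -0.30, with 6 of 8 lower in each case. No member passed limma's test, which 0.00444% of all probe sets passed. At an unadjusted p under 0.05 (5.88% of all probe sets) there were 3 members, each lower: 1427865_at (-0.81), 1427866_x_at (-0.48) and 1437810_a_at (-0.34). Without VTA saline array 2 or 3 the first became -0.44 or -1.23. The last was lower without overlap, as were 4.57% of all probe sets. Alas2 was at -0.30 ± 0.42. The 4 differences from saline share saline arrays within a region, so their common direction is not counted as 4 findings.

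**Figure D2:**
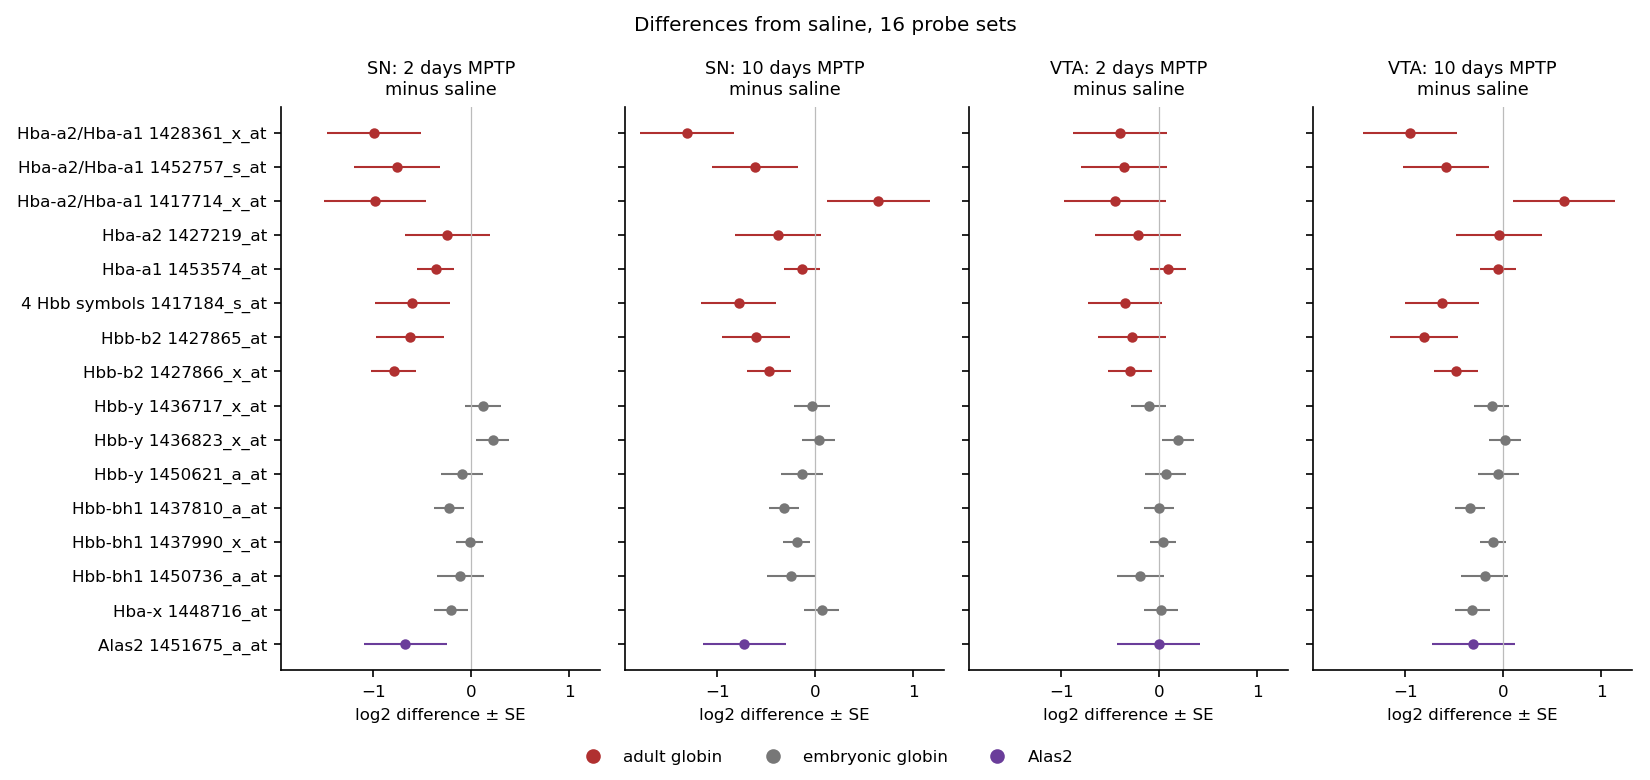
Difference from saline on the log2 scale, with its standard error, for the 16 probe sets in each region and treatment (limma, 3 arrays a group). The adult globin points lie left of 0 in most cases, with medians from -0.70 to -0.32, and 1417714_x_at stands at 0.64 and 0.62 after 10 days.

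With both regions averaged, the 2 day difference of 1427866_x_at was -0.54 ± 0.16 (limma adjusted p 0.267), and it was the only member with an unadjusted p under 0.05, against 9.51% of all probe sets. The adjusted test was passed by 0.0533% of all. After 10 days, when 0.04% of all probe sets passed, 5 members had an unadjusted p under 0.05 and were lower, 4 of them adult globin, against 3.19% of all probe sets lower at that threshold and 7.34% in either direction. The largest was 1428361_x_at at -1.13 ± 0.34, with a limma adjusted p of 0.383. No member passed in either comparison. These fits take the SN and VTA arrays as independent, while same-numbered arrays of the 2 regions deviated together for most adult globins, as given further on. If the numbers mark the same mice, the standard errors of these averages are too small for such members.

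Between 2 and 10 days of MPTP the largest difference among the members was that of 1417714_x_at. It was higher after 10 days by 1.63 ± 0.52 in the SN, with an unadjusted p of 0.0069 and a limma adjusted p of 1.00, and by 1.07 ± 0.52 in the VTA. Its arrays did not overlap in either region, where 5.5% of all probe sets in the SN and 4.85% in the VTA were higher without overlap. Hba-x was also higher without overlap in the SN, by 0.27. In the VTA, 1437810_a_at (-0.33) and Alas2 (-0.30) were lower without overlap, as were 4.94% of all probe sets. No member passed limma's test in the SN, where 0.02% of all probe sets passed, or in the VTA, where 0.0355% did. In each region 1 member had an unadjusted p under 0.05, 1417714_x_at in the SN and the embryonic 1437810_a_at in the VTA, against 2.6% of all probe sets in the SN and 6.09% in the VTA.

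The regions were compared within each treatment. After saline 8 of 8 adult probe sets were lower in the VTA than in the SN, with a median of -0.28, and after 2 days of MPTP 6 of 8 were higher, with a median of 0.19. After 10 days 7 of 8 were lower, with a median of -0.20. Each of these medians moved when 1 array was left out. Such a fit also leaves the same-numbered array of the other region without its partner. By number, the mean of the 8 adult probe sets after saline was 0.29, 0.58 and -0.43 in the VTA against 0.44, 0.85 and 0.01 in the SN. After 2 days these means were -0.11, -0.07 and -0.23 against -0.22, -0.08 and -0.42. After 10 days they were -0.52, -0.36 and 0.22 against -0.23, -0.41 and 0.57. After saline the median was 0.00 (4 of 8 lower) without VTA array 3 and -0.05 without SN array 2, and it was -0.56 without VTA array 2 and -0.55 without SN array 3. After 2 days it was -0.05 (3 of 8 higher) without SN array 3, 0.09 without VTA array 1 and 0.29 without VTA array 3. After 10 days it was 0.08 (2 of 8 lower) without SN array 3, and ranged from -0.40 to -0.07 with each of the other arrays left out. No member passed limma's test in these comparisons, nor did any probe set of the array (0%), and at an unadjusted p under 0.05 there were 0, 1 and 0 members, against 4.76%, 2.94% and 2.87% of all probe sets. Averaged over the 3 treatments, 8 of 8 adult probe sets were lower in the VTA, with a median of -0.07, which became 0.01 (3 of 8 lower) without SN 10 day array 3 and -0.01 (4 of 8) without VTA saline array 3, and ranged from -0.23 to -0.03 without each of the others. There no member passed limma's test (0% of all) and none had an unadjusted p under 0.05 (4.21% of all). After 2 days Hba-x (0.40), Alas2 (0.32), 1437810_a_at (0.25) and 1453574_at (0.24) were higher in the VTA without overlap, as were 4.86% of all probe sets. The test of the difference between regional responses, an interaction term in limma, gave a median of 0.43 for the adult probe sets at 2 days and 0.06 at 10 days, the VTA response minus that of the SN. With each array left out these ranged from 0.03 (without VTA saline array 3) to 0.65 (without SN saline array 3) and from -0.17 to 0.36 (without SN 10 day array 2 or 3). No member passed it at either time (0% of all probe sets), and none had an unadjusted p under 0.05, against 3.35% of all at 2 days and 3.31% at 10 days. All these fits take the SN and VTA arrays as independent. If the numbers mark the same mice, the standard errors of these comparisons are too large for members whose same-numbered arrays deviate together.

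When the 6 group means of a member were put in order, the step between neighbours did not exceed the larger of the 2 group SDs at any place for 13 of the 16 members. It did so at 1 place for 1427865_at and for Alas2, and at 2 places for 1437810_a_at. The order of the groups is therefore not resolved for most of these genes.

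The 3 probe sets shared by Hba-a1 and Hba-a2 allowed a closer look at the opposite course of 1417714_x_at. Since each probe set is centred, the gap between any pair of them has no meaning in itself, but its change from array to array compares readings of the same genes on the same array. A difference in transcript sequence and a difference in level cannot be told apart in such a change. The gap of 1417714_x_at over 1428361_x_at was -0.63, -0.97 and -1.01 on the SN saline arrays and -0.92, -0.89 and -0.77 after 2 days. On the SN arrays after 10 days it was 1.04, 1.17 and 1.04. In the VTA it was -0.56, -0.79 and -1.12 after saline, -0.86, -0.87 and -0.90 after 2 days, and 0.84, 0.55 and 0.87 after 10 days.

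The 6 arrays of the 10 day groups thus lay between 0.55 and 1.17, and the 12 others between -1.12 and -0.56. The mean gap after 10 days exceeded that after saline by 1.95 in the SN and by 1.58 in the VTA, where the SDs of these groups were between 0.07 and 0.28. An exact two-sided permutation test gave p = 0.1 in each region, the smallest that 3 against 3 arrays allow. Among 30892 pairs of probe sets with the same symbols on this array, 0.146% had 10 day arrays apart from all the others, and 0.0842% were apart with a mean shift above 1.5.

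Against 1452757_s_at the gap of 1417714_x_at was also higher on every 10 day array, at 0.27 to 0.99, than on any other array, where it was -0.92 to -0.42. Between 1428361_x_at and 1452757_s_at it shifted less and the other way, by -0.70 in the SN and by -0.37 in the VTA from saline to 10 days. For the pair of Hbb-b2 probe sets the 10 day arrays overlapped the saline arrays in both regions. Once group means were subtracted, 1417714_x_at and 1428361_x_at correlated at 0.98 over the 18 arrays, against 0.40 before, so the probe sets followed each other within groups. These comparisons were made after the values had been seen.

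**Figure D3:**
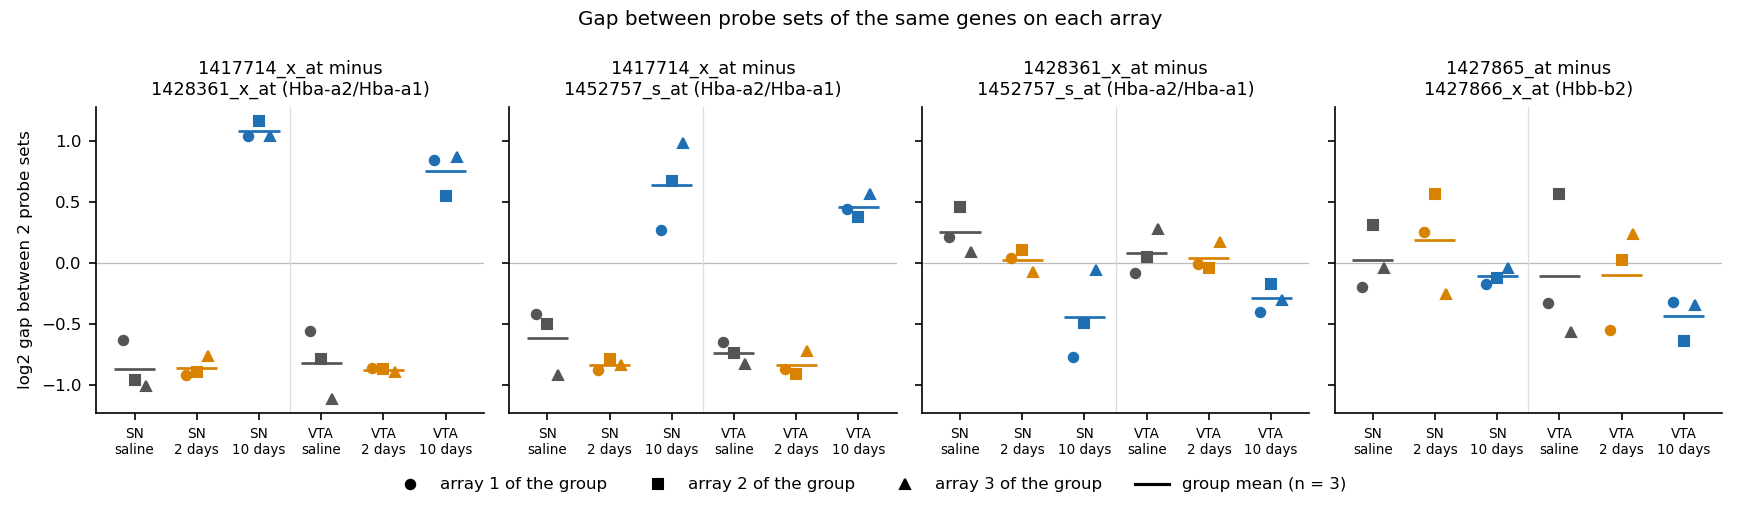
Log2 gap between probe sets of the same genes on each of the 18 arrays, by group; symbols give the array number and bars the group mean (n = 3). In the left panel the 6 arrays of the 10 day groups lie between 0.55 and 1.17 and the other 12 between -1.12 and -0.56.

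Arrays were then compared across regions by the number in their title. The titles number the arrays 1 to 3 in each group, and nothing states that a number marks the same mice. For each probe set the deviation of an array from its group mean was compared between the SN and VTA arrays of the same treatment and number, which gives 9 pairs. Deviations sum to 0 within a group, so these are fewer than 9 independent points.

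The correlation was 0.95 for 1417714_x_at, 0.95 for 1452757_s_at and 0.91 for 1428361_x_at, with Spearman's rho of 0.95, 0.98 and 0.90. Without the 2 SN arrays farthest from the median it was 0.90, 0.88 and 0.85. The 3 adult beta probe sets stood at 0.78, 0.79 and 0.83, 1427219_at at 0.76, and 1453574_at at 0.35. Of the 8 adult globin probe sets 7 were above 0.75, and so were 0 of the 7 embryonic ones and 7.67% of all probe sets. The median over all probe sets was 0.20.

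The mean of the 8 adult probe sets shows the same arrays standing out in both regions. It was 0.44, 0.85 and 0.01 on the SN saline arrays and 0.29, 0.58 and -0.43 on the VTA saline arrays of the same numbers. After 10 days it was -0.23, -0.41 and 0.57 in the SN and -0.52, -0.36 and 0.22 in the VTA. After 2 days the spread was small, -0.42 to -0.08 in the SN and -0.23 to -0.07 in the VTA. Alas2 gave 0.68, which rested on the saline arrays: without them it was -0.20.

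**Figure D4:**
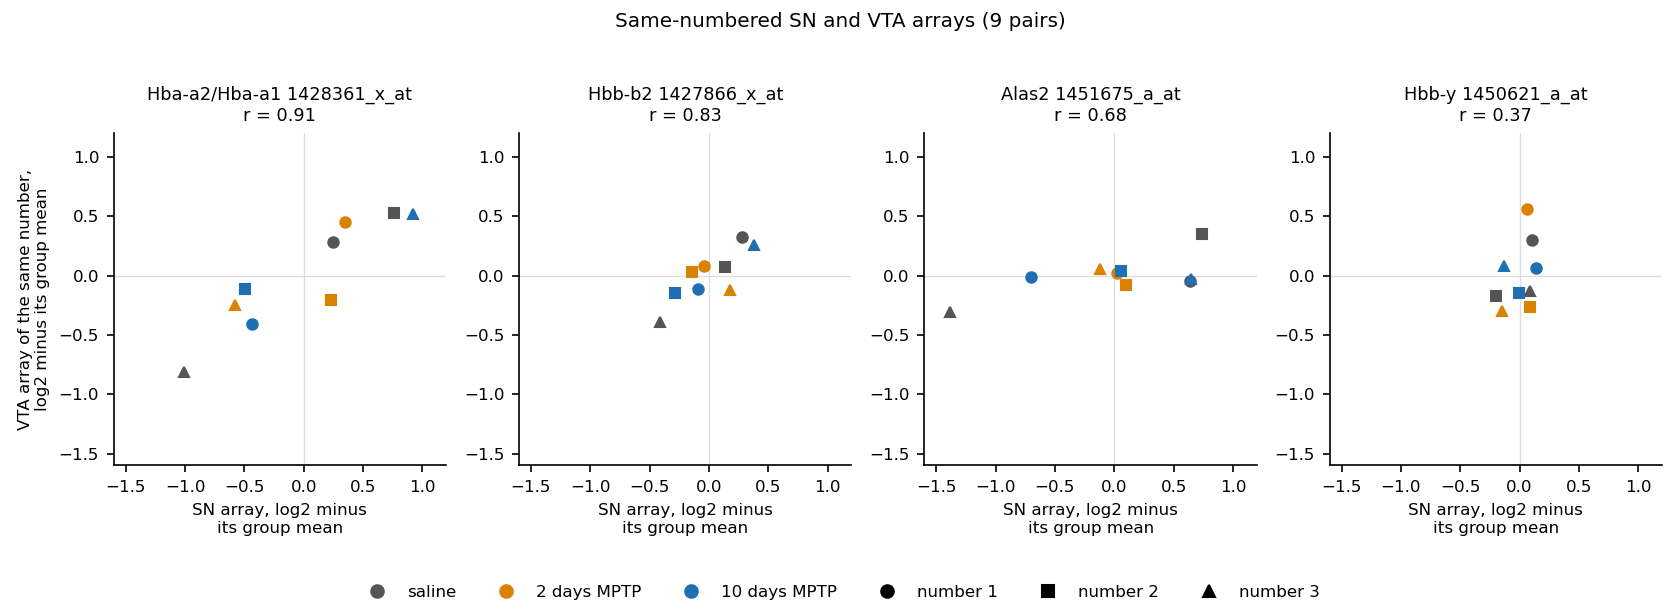
Deviation from the group mean, on the log2 scale, of each SN array against the VTA array of the same treatment and number (9 pairs) for 4 members; colours give the treatment and symbols the number. The points follow a line for 1428361_x_at (r = 0.91) and 1427866_x_at (r = 0.83), and less so for Alas2 (0.68) and the Hbb-y probe set 1450621_a_at (0.37).

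Members also varied with each other, and again most adult probe sets stood together. The median correlation over 18 arrays was 0.42 among the 28 pairs of adult probe sets, 0.58 between Alas2 and the adult ones, 0.05 between adult and embryonic ones, and 0.09 among the embryonic ones. The closest pairs were 1428361_x_at with 1452757_s_at, at 0.93, and 1417184_s_at with 1427865_at, at 0.89. Alas2 was closest to 1428361_x_at, at 0.80. The lowest adult pair was 1427219_at with 1417714_x_at, at -0.01, and the lowest adult value for Alas2 was that with 1453574_at, at -0.08. Probe sets of related genes share sequence and all arrays share their preparation, so these values describe how the readings ran together.

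Blood, vessel and neuron markers were set beside the mean of the 8 adult probe sets. The red cell markers ran with it at 0.19 (Spearman's rho 0.09) over 18 arrays, and 8 of 17 genes had a correlation above 0. Over 18193 genes this share was 50.9%, which is to be set beside the count of each list. Add2 (-0.57) and Ank1 (-0.40) were the lowest red cell genes. Slc4a1, the anion exchanger of the red cell membrane, was at 0.67, Gata1 at 0.12 and Klf1 at -0.11, both of these being transcription factors of red cell precursors. The group means of the red cell list lay between 0.00 and 0.10. Of the 3 Slc4a1 probe sets, 1416464_at differed most from saline in the SN after 2 days, by -1.41 ± 0.35 (limma adjusted p 0.799). In the VTA it differed by -0.42 ± 0.35 after 2 days. Its same-numbered arrays did not run together between the regions, at -0.34. The other Slc4a1 probe sets stood at -1.06 ± 0.50 and -0.08 ± 0.18 in the SN after 2 days. Their correlations with the adult mean were 0.65 and 0.13, so the gene's probe sets did not all move alike.

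Of the other circulating cells, platelet markers were at 0.71, with 7 of 10 genes above 0 and a median gene at 0.08. The chemokines Ppbp (0.73) and Pf4 (0.67) were high, while the membrane glycoproteins Gp5 (-0.10), Gp9 (-0.18) and Gp6 (-0.27) were below 0. Neutrophil markers were at 0.32 (7 of 11 genes above 0), lymphocyte markers at 0.56 (10 of 10) and microglia and macrophage markers at 0.65 (13 of 13). Pericyte and smooth muscle markers were at 0.64, but only 6 of 12 genes were above 0, and Rgs5, Kcnj8 and Cspg4 were at -0.20, -0.21 and -0.34. Endothelial markers were at 0.29 (10 of 16). Dopamine neuron identity genes were at 0.54, with 19 of 19 genes above 0, and at 0.30 once group means were subtracted. In the SN after 2 days, 30 of 33 of their probe sets were lower than after saline, with a median of -0.77, where the adult globins had -0.70. Their part in the globin differences was not tested. Astrocyte markers were at 0.12 (5 of 12), oligodendrocyte markers at 0.41 (10 of 11) and ependyma and choroid plexus markers at 0.02 (5 of 9).

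Genes of heme and globin control were compared in the same way. Heme synthesis genes other than Alas2 were at 0.56, with 4 of 7 genes above 0 and a median gene at 0.12. Alad, the second enzyme of the pathway, was at 0.69, and Fech (-0.14), Alas1 (-0.28) and Ppox (-0.47), enzymes of the same pathway, were below 0. Globin gene regulators were at 0.61, with 13 of 17 genes above 0, iron handling genes at 0.28 (8 of 13), and genes of heme degradation and transport at 0.27 (7 of 11). The other globins were neuroglobin (Ngb, -0.26), cytoglobin (Cygb, -0.30), myoglobin (Mb, -0.04) and androglobin (Adgb, -0.40), of which Mb was close to 0. Their list was at -0.43, and at -0.19 without the 2 arrays farthest from the median. No gene of any of these lists passed limma's test in any of the 14 comparisons.

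The search for the probe sets most like the globins used the mean of all 15 globin probe sets and 32555 single-symbol probe sets. The closest were Fn1 (fibronectin, a matrix protein) at 0.91, Wfikkn2 at 0.89, Fmod (fibromodulin, a collagen-binding proteoglycan) at 0.88 and Tns1 at 0.88. Perp, Slc6a12, Sema3b and Osr1 followed, at 0.86 to 0.85. With the 8 adult probe sets alone, 7 of these 8 were among the 12 closest. The closest to Alas2 were Hif3a (0.86), Slc26a7 (0.85), Mgp (matrix Gla protein, 0.84) and Slc12a7 (0.83), none of them shared with the first 8.

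The Fn1 probe set found by this search, 1426642_at, was high on the same arrays as the adult globins. Its SN values were 1.05, 1.33 and -0.52 after saline, 0.08, 0.03 and -0.21 after 2 days, and -0.19, -0.18 and 1.10 after 10 days. In the VTA they were 0.63, 1.11 and -0.44, then 0.17, -0.03 and -0.05, then -0.26, -0.52 and 0.68. Saline arrays 1 and 2 and 10 day array 3 were the highest in both regions. The low arrays did not all match: saline array 3 was the lowest of the SN for this probe set, where the adult globin mean was 0.01. The same-numbered arrays of 1426642_at correlated at 0.98 between the regions. The other Fn1 probe set, 1437218_at, was at 0.33 with the adult mean and at 0.12 between the regions, so the likeness is that of 1 probe set and not of the gene.

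Because these genes include matrix genes, a list of 30 leptomeningeal and perivascular fibroblast genes was written after they had been seen. These are cells of the brain coverings and of larger vessel walls. Its mean ran with the adult globins at 0.80 (Spearman's rho 0.68, and 0.72 without the 2 farthest arrays), and at 0.88 once group means were subtracted. Of its genes 30 of 30 were above 0, with a median of 0.73, where the median over 18193 genes was 0.01. The collagens Col3a1 and Col1a1 stood at 0.85 and 0.83. Fmod and Ogn, both among the 12 probe sets closest to the adult globins, were in the list. Its correlation was read on the same arrays that led to it, so it is not separate from the search.

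The list's level varied widely within the saline and 10 day groups, as the globins did. It ranged from -0.59 to 1.10 after saline in the SN and from -0.47 to 1.12 in the VTA, and from -0.20 to 1.34 and from -0.26 to 0.77 after 10 days. In the VTA after 2 days it ranged from -1.02 to -0.15, where the mean of the adult globins ranged only from -0.23 to -0.07. The list's probe sets were lower than after saline in 52 of 58 cases in the SN after 2 days (median -0.54) and in 55 of 58 in the VTA (median -0.75). After 10 days these counts were 44 and 43 of 58, and the differences in level were smaller than those of the adult globins. The list mean in the SN was 0.38 after 10 days and 0.48 after saline, where the adult globin mean was -0.02 and 0.43. In the VTA the list mean was 0.14 and 0.33, where the adult globin mean was -0.22 and 0.15. None of the list's probe sets passed limma's test. Their part in the globin differences was not tested.

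**Figure D5:**
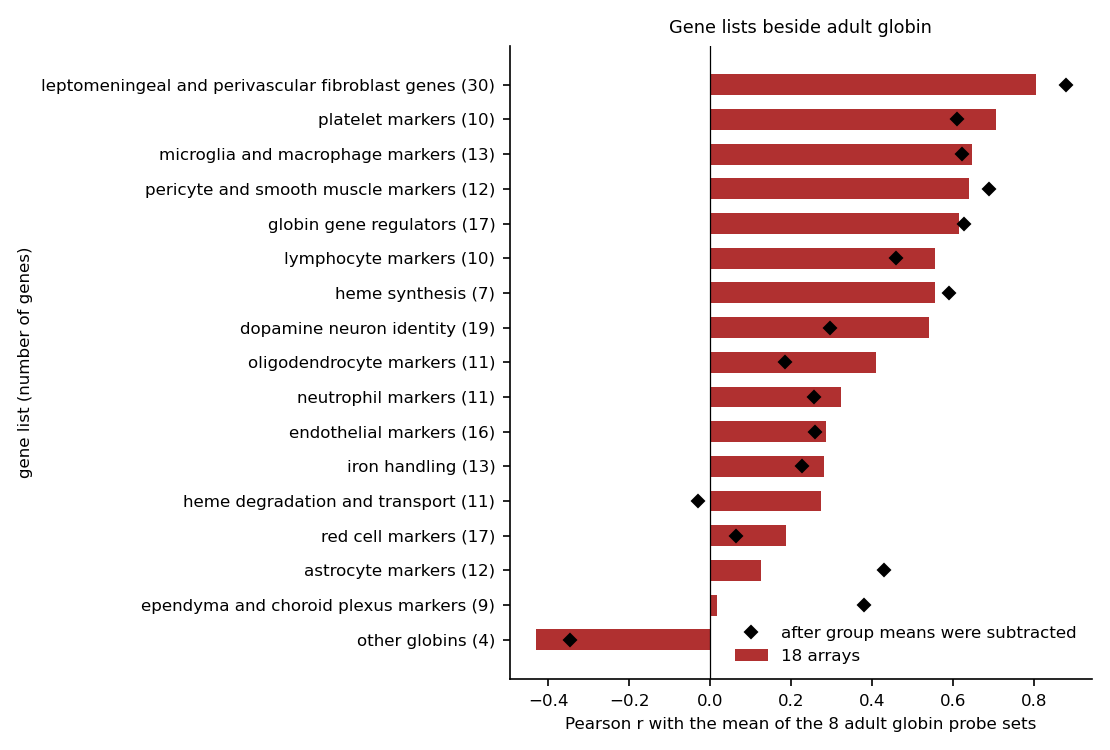
Pearson correlation over 18 arrays between the mean of the 8 adult globin probe sets and the mean of each gene list (bars), and the same after group means were subtracted (diamonds); brackets give the number of genes. The fibroblast list stands at 0.80, platelet markers at 0.71, red cell markers at 0.19 and the other globins at -0.43. The fibroblast list was written after the search on these same arrays, so its bar is not separate from that search.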

How the data were processed

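The authors deposited log2 expression values for 18 arrays, made by RMA in GeneSpring GX 10.0 per the submitters' processing notes; RNA had been amplified with the WT-Ovation Pico kit per the labels' protocols. In the file each probe set's median over the arrays is 0. Genes were named from the platform annotation (34958 probe sets with 1 symbol, 932 with several). After 64 control probe sets were left out, 45037 were fitted with limma 3.58.1 in R 4.3.3 as 6 group means, with 12 residual degrees of freedom, for 14 comparisons, two-sided, and p-values were adjusted by the Benjamini-Hochberg method over all probe sets. Scripts were tested on simulated data. The number of arrays limits the precision. Members, gene lists, motifs and comparisons were chosen with earlier results of these data known. Every member gene is named. The plan was to name list genes that passed, otherwise those of smallest p, beside a few defining genes and the single-symbol probe sets of highest correlation. Further list genes were named for a high or low correlation with the adult globins. Correlations are descriptions and were not tested. Alternatives covered scaling, weights, arrays left out, arrays in the fit, replicate numbers and the choice of probe sets.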

Additional observations from a re-analysis of the deposited data

How the results depend on the processing

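The count of members called was 0 wherever an alternative was run. Of 29 alternative settings, 18 of which left out 1 array, 27 covered all 14 comparisons, the fit of the compared groups alone 13 and that of fixed pairs 6, and the smallest adjusted p of a member was 0.137. Of 5680 alternative differences 289 had the other sign, 0 of them where the difference had exceeded its standard error. Over all probe sets the counts called moved more. With 1 array left out they were 0 to 5 in the SN after 2 days (0 with all arrays), 1 to 9 after 10 days (7), and 1 to 10 between the times (9). In the VTA they were 0 to 7 (6), 0 to 9 (2) and 0 to 13 (16), and for both regions 8 to 47 after 2 days (24) and 12 to 24 after 10 days (18). Array weights gave 12, 12 and 28 in the SN and 97 for both regions after 2 days. Without the 2 arrays of widest spread the counts were 3, 1 and 10 in the SN, 16, 4 and 3 in the VTA, and 17 and 25 for both regions. A fit of the compared groups alone gave 0 for every comparison except 13 between the times in the SN and 7 and 11 for both regions. Repeated quantile normalisation gave 5, 5 and 17 in the SN, 1, 0 and 10 in the VTA, and 22 and 23 for both regions. Gene means gave 0, 1 and 3, then 2, 2 and 6, then 16 and 7. The cause was not tested.

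The titles do not tie replicate numbers to mice, so the main fits used no pairing. Over all probe sets, 7 of 9 same-numbered SN and VTA arrays had deviations that correlated over 0.1 (0.0677 to 0.361), and 8 of 9 SN arrays were closest to their own number. With the number as a fixed replicate block, members called stayed at 0, and the counts over all probe sets were 0, 6 and 6 in the SN, 11, 1 and 2 in the VTA, and 44 and 24 for both regions. With a random block (correlation 0.177) they were 0, 7 and 7, then 6, 2 and 9, then 16 and 13. With fixed pairs of SN and VTA arrays, added after seeing the data, the 6 comparisons of regions gave 0 members called, and 1 probe set over all treatments. Values centred on each probe set, 3 arrays a group and unknown signal over background limit all of these results.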

Other observations

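The alpha globin pair was 1 of 7 genes or gene pairs in which the gap between probe sets of the same symbols on the 6 arrays of the 10 day groups lay apart from that on the other 12, with a mean shift above 1.5. The others were H2-K1 (a mean shift of 3.26) and H2-D1 (2.84), which encode class I histocompatibility antigens, Tbc1d24 (-2.62), Pnpt1 (-2.14), Pisd-ps3 (-1.77) and Slc15a2 (1.68); a sign gives only which probe set came first. H2-K1, H2-D1 and Tbc1d24 lie on chromosome 17, and Pnpt1 on chromosome 11 with the alpha globins. In the comparison of 10 days with saline over both regions, 16 of the 18 probe sets that passed limma's test had a placed gene. Of these, 9 were on chromosome 17, which holds 4.39% of all placed probe sets, and 2 on chromosome 11, which holds 7.78%. The 9 are not separate genes, since H2-D1 and H2-K1 each had several probe sets among them. The others were of AA388235, Tbc1d24, Flywch2 and E4f1. Pnpt1 probe set 1452677_at read higher after 10 days by 1.83 ± 0.14 (limma adjusted p 1.82e-05) and H2-K1 probe set 1425336_x_at by 3.54 ± 0.32 (limma adjusted p 0.000194). These observations were made after the values had been seen, and no cause was tested. The labels give 1 strain for all mice, whose genotypes were not tested here, and a difference in transcript sequence and a difference in level cannot be told apart in these values.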
